A study of Homo sapiens and Mus musculus with 61 samples.

Results

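A promoter region was counted here as strongly raised when its log2 ratio of guide over sgGal4 was 3 or more in the table of 1 single guide. For this ratio the levels were averaged on the linear scale, in guide libraries and in sgGal4 libraries, and recomputed from the library columns. A region of 300 bp was taken as a promoter region when its centre lay within 1 kb of the transcription start of a protein-coding gene, and the beta-globin cluster (a window of 130 kb from position 5200000 of hg19 chromosome 11) was left out. In the 16 single-guide tables this gave 268 regions at 259 loci, out of 126308 listed regions. They made up 0.764% of the 35068 promoter regions, while 846 of 91198 other regions outside the cluster (0.928%) passed the same limit. The regions were chosen by these ratios, which are therefore described and not tested.

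The data are CAPTURE-ChIP-seq of K562, a human leukaemia line with erythroid features. The cells carried a biotinylated, catalytically inactive Cas9 (dCas9) and either a single guide RNA to the cluster or sgGal4, a guide with no intended human target, and the DNA that came down on streptavidin beads was sequenced. The labels do not say whether the cells were 1 clone. First guides, by their names, were sgHS1 to sgHS5 for HS1 to HS5, hypersensitive sites of the locus control region, sgHBB and sgHBG for the beta-globin and gamma-globin genes, sgHBD-1kb for a place near the delta-globin gene and sg3'HS1 for the downstream boundary element. Second guides to HS1 to HS5, HBB and HBG carry the suffix sg2. The single-guide tables hold 36 guide libraries and the same 4 sgGal4 libraries. The guides sgHBB, sgHS2-sg2 and sgHS3-sg2 have 1 library. There are 5 libraries for sgHS2, 4 for sgHBG, 3 for each of sgHS5 and sgHS3, and 2 for each other guide. A pool of guides to HS1 to HS5 (sgHS1-5, 6 libraries) was kept apart. The labels number the libraries without saying that they came from separate cultures, so p-values measure only the spread between libraries. In the listed regions, guide libraries held 7127 to 432553 reads and sgGal4 libraries 6499 to 169968. Replicates 3 and 4 of sgGal4 were the shallow ones.

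Cas9 finds a target by first recognising a short motif in the DNA, the PAM, which for the widely used Streptococcus pyogenes protein is NGG. The guide then pairs with the DNA beginning at the bases next to the PAM, so that sites sharing only this PAM-side stretch can hold dCas9 without being cut. Promoters of active genes lie in open, GC-rich chromatin and hold many NGG motifs.

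The sequences of the guides were not used here. For each guide, every 20-base protospacer with an NGG in the region the authors' deposited table tags as on-target was compared with the raised regions that are not promoters. The protospacer whose 10 PAM-side bases stood before an NGG in most of those regions was taken as the guide's candidate. The raised promoter regions had no part in this choice, and it gave a candidate for 9 guides. They are printed 5′ to 3′ from hg19 with the 10 PAM-side bases and the PAM in capitals, because all matches below are to these letters.

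sgHS2-sg2, chr11:5301646-5301668, minus strand: gtggcctctaTACCTAGAAGCGG
sgHS3, chr11:5305921-5305943, minus strand: gagagatagaCCATGAGTAGAGG
sgHS3-sg2, chr11:5306222-5306244, minus strand: aggaatcattCTGTGGATAAAGG
sgHS4, chr11:5309558-5309580, minus strand: cccactcagcAGCTATGAGATGG
sgHS5, chr11:5312559-5312581, minus strand: tgcccccaccTTACAGGGACAGG
sgHBB, chr11:5248382-5248404, minus strand: ccctgtggagCCACACCCTAGGG
sgHBG, chr11:5271218-5271240, minus strand: gctaaactccACCCATGGGTTGG
sgHBD-1kb, chr11:5256970-5256992, plus strand: gtacaatagtATAACCCCTTTGG
sg3'HS1, chr11:5226266-5226288, plus strand: gctttagtgtAAGCGAGGTCAGG

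The candidates rest on unequal numbers of regions. The 10 bases stood in 93 of 150 raised non-promoter regions for sgHS2-sg2, 60 of 115 for sgHBB, 48 of 104 for sgHS3, 47 of 57 for sgHS4, 29 of 68 for sgHBG and 21 of 28 for sgHS3-sg2. They stood in only 10 of 129 for sgHS5, 7 of 61 for sgHBD-1kb and 4 of 129 for sg3'HS1. The next best protospacer reached 23 regions for sgHS3 and 27 for sgHBB.

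The next lines show the best site in raised promoter regions that the results turn on, with the run of bases matching the candidate at the PAM side, and the PAM, in capitals. In the first group the run has 10 or more bases.

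RNF44, sgHS4, chr5:175965268-175965290, plus strand: tcctCTCAGCAGCTATGAGACGG
TEX45, sgHS2-sg2, chr19:7557061-7557083, plus strand: tttgggTCTATACCTAGAAGTGG
PCLAF, sgHS2-sg2, chr15:64673373-64673395, minus strand: ctggccccttTACCTAGAAGAGG
STAMBPL1, sgHS3, chr10:90660562-90660584, minus strand: ccttgtgAGACCATGAGTAGAGG
ARVCF, sgHBB, chr22:19975405-19975427, plus strand: tcaatgtggGCCACACCCTAGGG
RAD50, sgHBB, chr5:131893274-131893296, minus strand: agcctgcagGCCACACCCTAAGG
TOR1B, sgHBB, chr9:132566217-132566239, minus strand: agggtgtctGCCACACCCTAGGG
HNRNPUL1, sgHS3-sg2, chr19:41777206-41777228, minus strand: tgatgaatgTCTGTGGATAACGG
PRSS35, sgHS5, chr6:84221974-84221996, plus strand: gtgcatactaTTACAGGGACAGG
PRICKLE1, sg3'HS1, chr12:42983689-42983711, plus strand: tcggccctgaAAGCGAGGTCGGG

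In the second group, which is typical of the promoters, the run has 4 to 9 bases.

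EGR2, sgHS3, chr10:64576605-64576627, minus strand: gctgccaagaaagTGAGTAGGGG
WDR73, sgHBG, chr15:85197615-85197637, plus strand: agctgcggcccggCATGGGTGGG
EHBP1, sgHBD-1kb, chr2:62932442-62932464, plus strand: ctaggtctgcaatcaCCCTTAGG
OSBP2, sg3'HS1, chr22:31198867-31198889, plus strand: gcgcacggctcctctAGGTCCGG
GLUD2, sg3'HS1, chrX:120181321-120181343, plus strand: gacctccggacccgGAGGTCCGG
LEPROT, sg3'HS1, chr1:65886045-65886067, plus strand: cgagtagcggtAGCGAGGTCTGG
LEPROT, sgHS3, chr1:65886032-65886054, plus strand: tggggcggggcttcGAGTAGCGG
CMPK1, sgHBG, chr1:47799378-47799400, plus strand: actaataaccacccaaGGGTTGG
CMPK1, sgHBD-1kb, chr1:47799389-47799411, minus strand: ccagctttcctccaaCCCTTGGG

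Whole regions are shown for RNF44, the raised promoter region with the longest match, and for LEPROT and SMG1, where the sites of 2 guides lie side by side. Capitals mark the matching runs with their PAM.

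RNF44, sgHS4, chr5:175965124-175965423, plus strand: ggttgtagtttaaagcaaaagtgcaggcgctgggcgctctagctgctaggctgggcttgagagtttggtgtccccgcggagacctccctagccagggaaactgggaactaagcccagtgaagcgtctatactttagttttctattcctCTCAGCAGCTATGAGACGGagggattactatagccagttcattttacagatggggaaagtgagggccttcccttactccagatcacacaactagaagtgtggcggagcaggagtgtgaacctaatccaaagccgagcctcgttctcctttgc
LEPROT, sg3'HS1 and sgHS3, chr1:65885892-65886191, plus strand: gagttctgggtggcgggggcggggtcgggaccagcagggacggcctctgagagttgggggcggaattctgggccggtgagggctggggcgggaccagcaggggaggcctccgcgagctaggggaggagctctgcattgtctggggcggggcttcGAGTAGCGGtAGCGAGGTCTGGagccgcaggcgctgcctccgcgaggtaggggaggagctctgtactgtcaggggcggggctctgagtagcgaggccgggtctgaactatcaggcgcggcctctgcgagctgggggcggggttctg
SMG1, sgHBD-1kb and sg3'HS1, chr16:18937749-18938048, plus strand: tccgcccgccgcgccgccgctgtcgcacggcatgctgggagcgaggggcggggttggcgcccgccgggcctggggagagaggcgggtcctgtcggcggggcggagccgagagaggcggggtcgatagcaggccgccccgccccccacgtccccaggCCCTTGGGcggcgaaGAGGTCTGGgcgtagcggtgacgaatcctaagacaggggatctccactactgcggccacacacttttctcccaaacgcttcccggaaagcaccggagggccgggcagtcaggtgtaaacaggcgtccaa

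The raised promoter regions were spread unevenly over the guides. sg3'HS1 had 105 (2.32% of its promoter regions), sgHBD-1kb 46 (1.59%), sgHS3 31 (1.55%), sgHS5 27 (0.922%), sgHBB 21 (2.87%) and sgHS2-sg2 19 (1.2%). There were 7 for sgHBG (0.537%), 6 for sgHS4 (0.137%) and 2 for sgHS3-sg2 (0.114%). A single region each came from sgHS1-sg2 (0.0268%), sgHS2 (0.106%), sgHS5-sg2 (0.0417%) and sgHBB-sg2 (0.0771%), and 0 from sgHS1, sgHS4-sg2 and sgHBG-sg2. The tables were not centred alike. The median ratio over promoter regions was 0.81 for sgHBD-1kb, 0.75 for sg3'HS1 and 0.75 for sgHS3, but -0.58 for sgHS1 and -1.42 for sgHBB. A ratio of 3 therefore does not stand equally far above the typical promoter in each guide's table. Of all listed regions outside the cluster, 1114 (0.882%) were raised, and 24.1% of these were promoter regions. Promoters made up 44.9% of the raised regions outside the cluster for sg3'HS1, close to their 42.3% of all regions listed for that guide. For sgHBD-1kb they made up 43.0% of the raised and 29.1% of all listed regions. They made up less of the raised than of all listed regions for sgHS2-sg2 (11.2% and 18.5%), sgHS4 (9.52% and 40.9%) and sgHBG (9.33% and 19.2%). Of all 126266 listed regions outside the cluster, 27.8% were promoter regions.

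**Figure D1:**
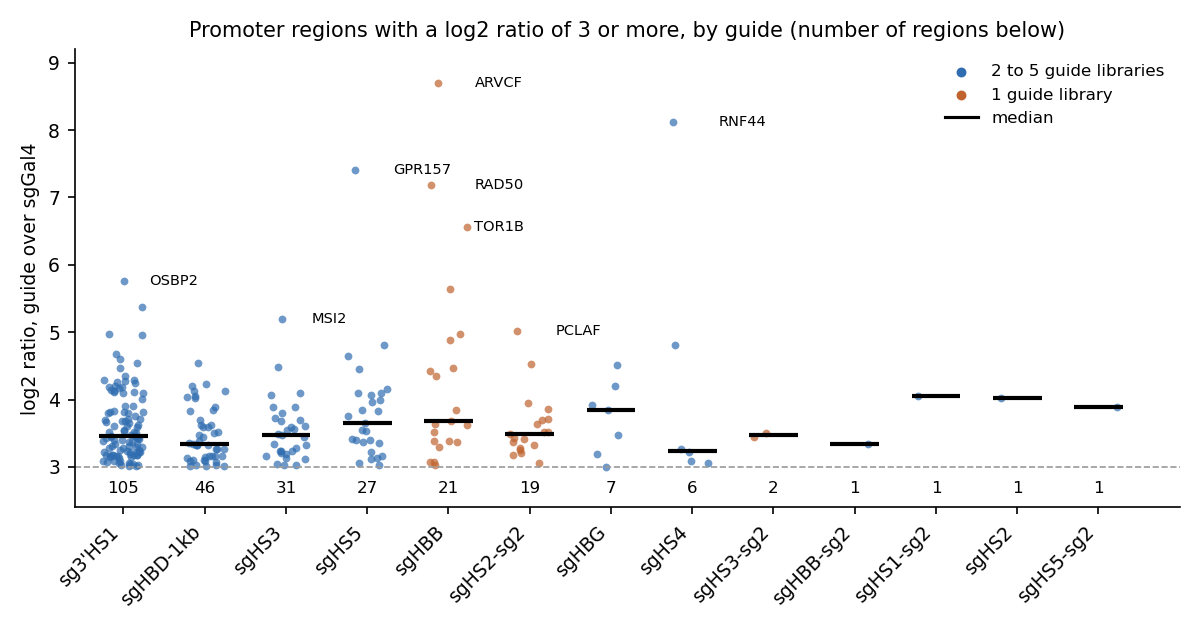
Log2 ratio of guide over sgGal4 (vertical axis) of each raised promoter region by guide, with the number of regions under each column, the median as a bar and the limit of 3 as a dashed line. Most of the 268 regions lie below 4, and the points above 6 belong to sgHBB, sgHS4 and sgHS5.

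Ratios ran between 3.0008 and 8.70 with a median of 3.48, and 206 of 268 regions lay below 4. Only 10 reached 5, 5 reached 6 and 4 reached 7. The sgGal4 libraries held few reads there, with a median of 5.5 summed over the 4 libraries and 0 in all 4 at 29 regions. On the linear scale, a region at 0 reads keeps a level above 0, so its ratio is no bound. On recovered reads, with 3 reads over the 4 sgGal4 libraries as the floor, those 29 regions were at least 10.9-fold to at least 91.4-fold higher with the guide. The median of the log2 ratio of reads over all 268, with these 29 at their bounds, was 4.31. The limit was passed by 427 promoter regions without sgGal4 replicate 4 and by 402 without replicate 3, against 202 and 207 without replicates 1 and 2. Just inside the limit of 3 lay DEPTOR, an inhibitor of mTOR, with sgHBG at 3.0008, and AP5S1 with sgHBD-1kb at 3.0102. Just outside it lay LAT2 with sgHS4 at 2.9981, ZNF225 with sgHS3 at 2.9955 and SND1 with sg3'HS1 at 2.9946.

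The highest ratios belonged to 5 promoters. ARVCF, a catenin-family protein of cell junctions, held 5476 reads in the single sgHBB library, against 4, 4, 2 and 2 reads in sgGal4 replicates 1 to 4 (log2 ratio 8.70). Its region, chr22:19975284-19975583, lies in an intron, with its centre 817 bp from the nearest start and upstream of it. RNF44, a RING finger protein, held 4239 and 2255 reads with sgHS4, against 2, 5, 0 and 0 with sgGal4 (8.12, SD 1.49, n = 2). The centre of this region, chr5:175965124-175965423, lies outside transcripts, and its ratio was 6.72 without the first guide library. GPR157, an orphan G protein-coupled receptor, held 1212, 626 and 326 reads with sgHS5, against 1, 2, 0 and 1 with sgGal4 (7.41, SD 1.254, n = 3). RAD50, a subunit of the complex that senses DNA double-strand breaks, held 1718 reads with sgHBB, against 6, 3, 3 and 0 with sgGal4 (7.18). TOR1B, a torsin ATPase of the endoplasmic reticulum, held 804 reads with sgHBB, against 1, 7, 1 and 0 with sgGal4 (6.56). Every guide library lay above every sgGal4 library at these 5 promoters, but 3 of them rest on the single sgHBB library. The RAD50 region, in its first intron, is also within 1 kb of a start of IL5, a cytokine of eosinophils.

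**Figure D2:**
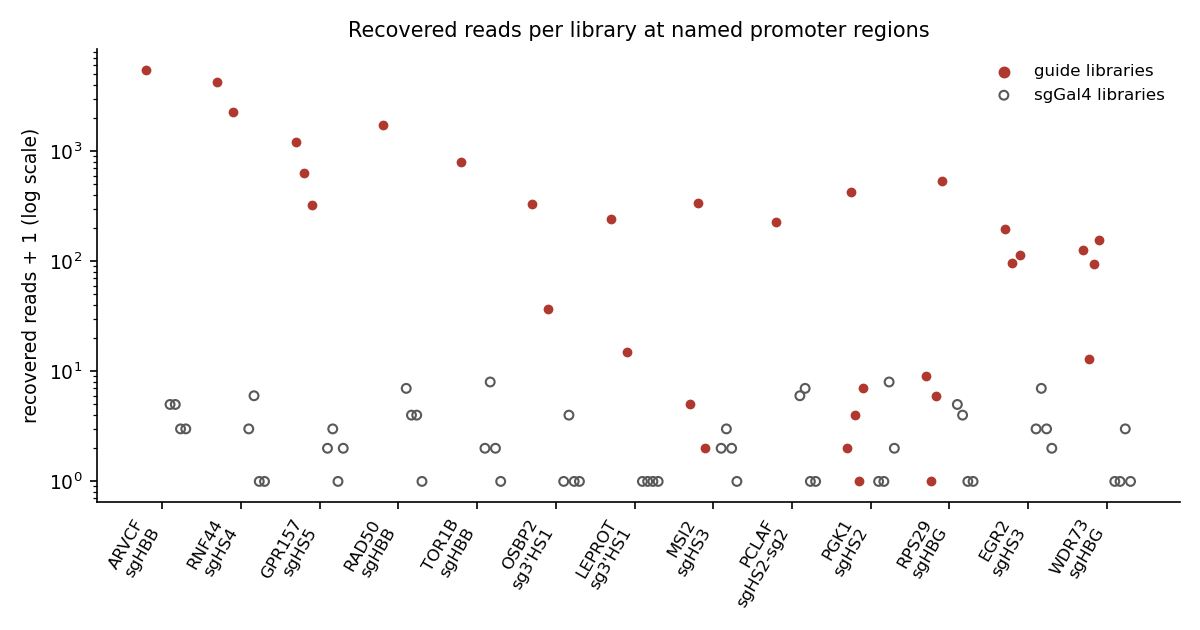
Recovered reads plus 1 on a log axis in each guide library (filled) and each of the 4 sgGal4 libraries (open) at 13 named promoter regions. ARVCF, RNF44, GPR157, RAD50 and TOR1B lie above 300 reads in every guide library, whereas MSI2, PGK1 and RPS29 have 1 guide library far above the others.

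For sg3'HS1 the raised promoters were many and of moderate height, with a median ratio of 3.46 and a highest of 5.75. OSBP2, an oxysterol-binding protein, held 328 and 36 reads with the guide, against 0, 3, 0 and 0 with sgGal4 (5.75, SD 1.02, n = 2). LEPROT, which shares its start with the leptin receptor gene LEPR, held 240 and 14 reads, against 0 in all 4 sgGal4 libraries, at least 91.4-fold higher by reads (ratio of levels 5.37, SD 1.498). GLUD2, a mitochondrial glutamate dehydrogenase, held 155 and 22 reads, against 0, 1, 0 and 0 (4.97, SD 0.68). Replicate 1 gave the higher level at 93 of the 105 regions, and its reads in the listed regions were 147774 against 29397 in replicate 2. Without replicate 1 the number of raised promoters was 70, and without replicate 2 it was 144. PRICKLE1, a planar cell polarity protein, held 63 and 39 reads, against 0, 1, 0 and 1 (4.19, SD 0.72). KIF3A, a kinesin motor subunit, held 87 and 22 reads, against 3, 4, 1 and 1 (3.34, SD 0.09). EDARADD, an adaptor of the ectodysplasin receptor, lay close above the limit. It held 13 and 36 reads, against 1, 1, 2 and 1 with sgGal4 (3.03, SD 2.21), and its ratio was 0.75 without replicate 2.

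The 46 promoters of sgHBD-1kb agreed most closely between libraries, with a median SD of 0.17 on the log2 level. CD247, the zeta chain of the T-cell receptor complex, held 117 and 84 reads with the guide, against 4, 6, 0 and 0 with sgGal4 (4.55, SD 0.08, n = 2). EHBP1, an adaptor of endocytic traffic, held 105 and 61 reads, against 1, 5, 0 and 1 (4.23, SD 0.29). RRM2B, a subunit of ribonucleotide reductase, held 85 and 57 reads, against 0, 3, 1 and 0 (4.21, SD 0.15). In all 46 regions both guide libraries lay above the 4 sgGal4 libraries, and 34 kept a ratio of 3 or more without either guide library. These counts use the values by which the regions were chosen, so nothing is read from them.

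For sgHS3 the named regions differed sharply in their spread. EGR2, a zinc finger factor of the early growth response, held 195, 96 and 113 reads with the guide, against 2, 6, 2 and 1 with sgGal4 (4.48, SD 0.29, n = 3). STAMBPL1, a deubiquitinating enzyme, held 130, 24 and 25 reads, against 0, 2, 1 and 0 (4.10, SD 1.02). MSI2, an RNA-binding protein of the Musashi family, held 4, 340 and 1 reads, against 1, 2, 1 and 0 (5.19, SD 3.89). The highest ratio of this guide thus came from replicate 2, which held 98.1% of the summed level, and without it the MSI2 ratio was 0.04.

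All 27 promoters of sgHS5 were highest in replicate 1. After GPR157 came PRSS35, of the serine protease family, with 258, 37 and 19 reads, against 0, 2, 0 and 1 with sgGal4 (4.81, SD 2.70, n = 3). Without replicate 1 its ratio was 1.61. CAMK2A, a calcium/calmodulin-dependent kinase, held 126, 103 and 39 reads, against 1, 3, 0 and 0 (4.65, SD 1.32). The median over the 27 regions was 125 reads in replicate 1, 39 in replicate 2 and 23 in replicate 3, although replicate 1 was the shallowest with 158766 reads in the listed regions, against 432553 and 245557. Without replicate 1, 2 of the promoter regions of the table reached the limit, and without replicates 2 and 3 the numbers were 39 and 40.

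The guides with 1 library or few regions add the following. PCLAF, a PCNA-associated factor, held 226 reads with sgHS2-sg2, against 5, 6, 0 and 0 with sgGal4 (5.01). It is the only raised promoter region that the authors' deposited tables tag as off-target, among 27 such tags, of which 4 are on promoter regions and 12 on regions with a ratio of 3 or more. TEX45 held 192 reads with the same guide, against 1, 1, 1 and 2 (4.52). MBP, myelin basic protein, held 64 reads, against 0 in all 4 (at least 32.7-fold higher by reads). ARHGAP45 held 194 reads with sgHBB, against 2, 1, 0 and 0 (4.98), and HNRNPUL1, an RNA-binding protein, 64 reads with sgHS3-sg2, against 0 in all 4 (at least 49.7-fold higher by reads). With sgHS4, PLIN5, a lipid droplet coat protein, held 576 and 40 reads, against 1 in each sgGal4 library (4.82, SD 2.07, n = 2), and TTBK2, a kinase needed for cilia, 121 and 7, against 1, 1, 0 and 0 (3.27, SD 1.55). Without replicate 1 the ratio was 2.71 for PLIN5 and 1.79 for TTBK2. Without sgHS4 replicate 1, 2 promoter regions remained above the limit in place of 6, and without replicate 2 there were 9. With sgHBG, WDR73 held 126, 12, 93 and 155 reads, against 0, 0, 2 and 0 (4.21, SD 0.86, n = 4), all above sgGal4. RPS29, a protein of the small ribosomal subunit, held 8, 0, 5 and 536 reads with sgHBG, against 4, 3, 0 and 0 (4.52, SD 3.08), so that 1 library held 95.1% of the level and the ratio without it was 0.58.

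Among the second guides, GFOD2 held 93 and 120 reads with sgHS1-sg2, against 2, 5, 1 and 0 with sgGal4 (4.06, SD 0.76, n = 2). ZCCHC24, a zinc finger protein, held 40 and 59 reads with sgHS5-sg2, against 0 in all 4 (at least 53.1-fold higher by reads). MRPL11, of the mitochondrial ribosome, held 193 and 52 reads with sgHBB-sg2, against 3, 5, 4 and 1 (3.34, SD 0.89), and its ratio was 2.57 without replicate 1. In these 3 regions both guide libraries lay above the 4 sgGal4 libraries.

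Over the tables with 2 or more guide libraries, every guide library lay above every sgGal4 library in 208 of 226 raised promoter regions. The rule used the same values, so nothing is read from this share, and over all promoter regions of those tables it was 22.4%. Without any 1 guide library in turn, 122 of the 226 kept a ratio of 3 or more, while 12 had a ratio below 1 without 1 library. In 12 regions 1 library held 90% or more of the summed guide level. The remaining 42 regions come from tables with 1 guide library and have no replicate.

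Matches to the guide's own candidate were common and sat in the middle of the region. Of the 264 raised promoter regions of the 9 guides with a candidate, 209 (79.2%, exact Clopper-Pearson 95% interval 73.8% to 83.9%, counting error only) had 5 or more PAM-side bases before an NGG, on either strand, within 30 bp of the centre. The other promoter regions of the same tables had such a match in 1697 of 21845 cases (7.77%), and the raised regions that are not promoters, part of which chose the candidates, in 681 of 841 (81.0%). Anywhere in the region, 5 or more bases were found in 236 of 264 raised promoter regions (89.4%), against 3441 of 21845 other promoter regions (15.8%). Of the regions with such a match, 88.6% of the raised and 49.3% of the other promoter regions had it within 30 bp of the centre. The sequence took no part in the choice of the regions. As regions share libraries and guides, these shares are given without a test.

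Longer matches were found in a minority of the raised promoter regions. The raised regions that are not promoters chose the candidates by matches of 10 bases, so their shares are high by construction and are no measure against which to set the promoters. A run of 8 or more bases was found in 49 of 264 raised promoter regions (18.6%), against 152 other promoter regions (0.696%) and 420 raised regions that are not promoters (49.9%). A run of 10 or more bases was found in 20 raised promoter regions (7.58%), against 19 other promoter regions (0.087%) and 319 raised non-promoter regions (37.9%). For sg3'HS1, the guide with most raised promoters, it was found in 4 of 105 raised promoter regions and in 4 of 129 raised regions that are not promoters. RNF44 had the longest run, 16 bases, with 18 of 20 bases matching in all. TEX45 followed with 14 bases and STAMBPL1 with 13. FSIP1 and LYPLAL1, both with sgHS2-sg2, had 12, and ARVCF, RAD50, TOR1B, ARHGAP45, MBP, HNRNPUL1 and GLIS3, the last with sgHS3, had 11. PCLAF, with a run of 10, matched at 17 of 20 bases. At the other end, GPR157 had a run of 3 bases, PLIN5 4, MSI2 and CAMK2A 2 and RPS29 3, so a high ratio did not always go with a long run.

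**Figure D3:**
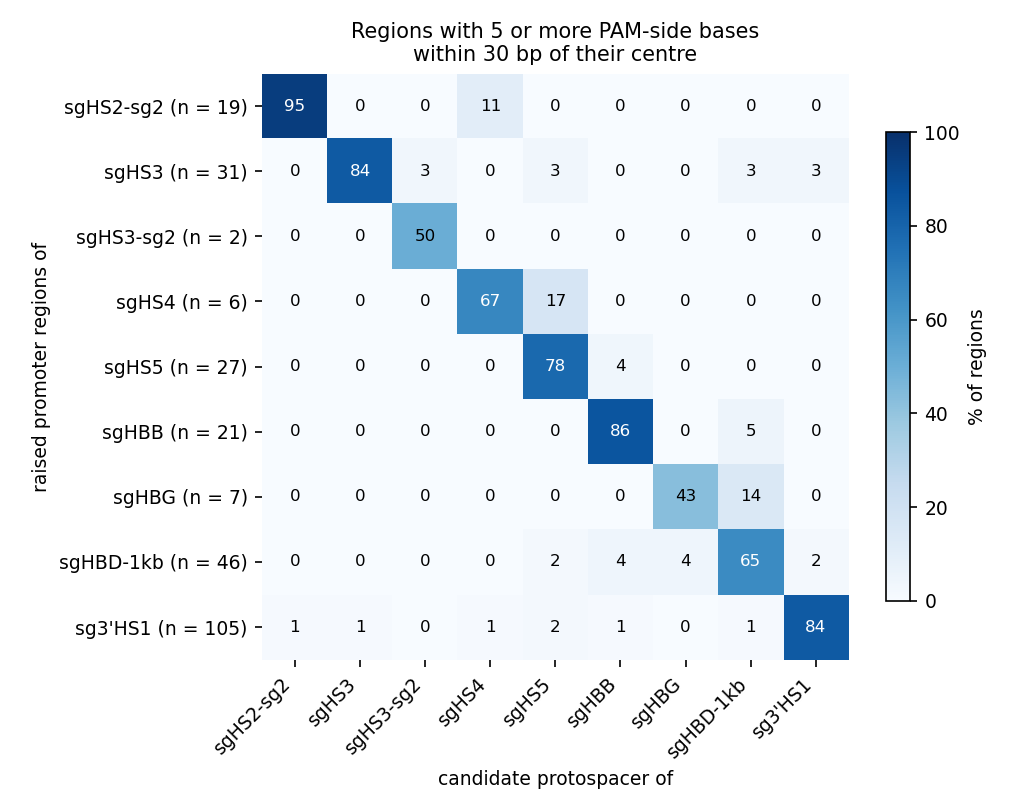
Share of raised promoter regions of each guide (rows) that hold 5 or more PAM-side bases of each guide's candidate (columns) within 30 bp of the centre, in percent. The diagonal, each guide with its own candidate, lies between 43% and 95%, and the cells off the diagonal reach at most 17%.

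The match was mostly to the guide's own candidate and rarely to that of another guide. With its own candidate the share within 30 bp was 94.7% for sgHS2-sg2 (18 of 19), 85.7% for sgHBB (18 of 21), 83.9% for sgHS3 (26 of 31), 83.8% for sg3'HS1 (88 of 105) and 77.8% for sgHS5 (21 of 27). It was 65.2% for sgHBD-1kb (30 of 46), 4 of 6 regions for sgHS4, 3 of 7 for sgHBG and 1 of 2 for sgHS3-sg2. Other promoter regions of the same tables held the same match in 18.7% for sgHS2-sg2, 13.2% for sgHBB, 7.87% for sgHS3, 10.7% for sg3'HS1, 6.52% for sgHS5 and 10.8% for sgHBD-1kb. Paired with the candidate of another guide, raised promoter regions matched in 1.09% of cases. The 5 bases before the PAM were AGGTC for sg3'HS1 and CCCTT for sgHBD-1kb, the guides with most raised promoters. Followed by NGG, on either strand and anywhere in 300 bp, AGGTC stood in 22% and CCCTT in 19.9% of the other promoter regions of those tables. For AGAAG of sgHS2-sg2 this was 32.6%, for CCCTA of sgHBB 19.3%, for GGGAC of sgHS5 17.3% and for AGTAG of sgHS3 13.3%. These letters alone are therefore frequent in promoters that were not raised.

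The share with a centred match went up with the ratio over all promoter regions of the 9 tables. It was 1.3% of 5853 promoter regions with a ratio below 0, 4.36% of 10385 between 0 and 1, 15.6% of 4765 between 1 and 2 and 50.7% of 842 between 2 and 3. Among the raised promoter regions it was 78.4% of 204 with a ratio below 4 and 81.7% of 60 at 4 or more. Regions whose level rested on 1 library had similar shares. The match was found in 8 of 11 regions with 90% or more of the level in 1 library, against 164 of 211 (77.7%) of the other regions with replicates. It was found in 96 of 120 regions (80%) that kept a ratio of 3 without any 1 guide library, against 76 of 102 (74.5%) that did not.

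**Figure D4:**
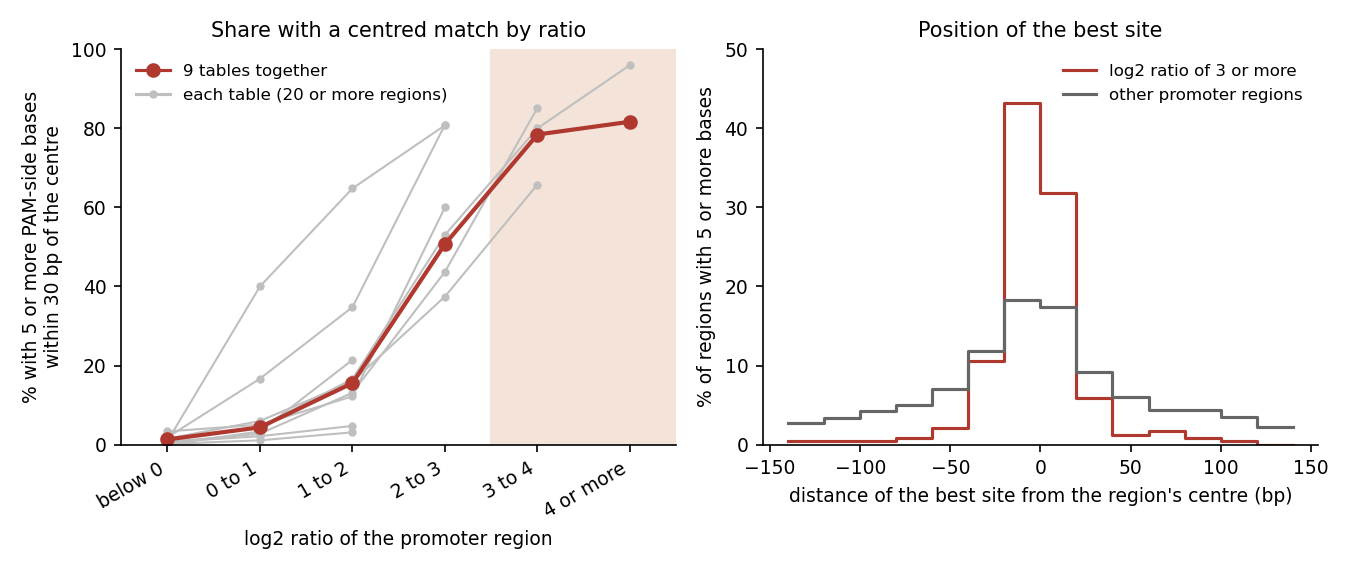
Left, share of promoter regions with 5 or more PAM-side bases within 30 bp of the centre (percent) by log2 ratio, for the 9 tables together and for each table with 20 or more regions in the bin. Right, distance of the best site from the region's centre (bp) for regions with 5 or more bases. The share runs between 1.3% and 81.7%, and sites in raised promoter regions gather at the centre.

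Pooled over the tables, the raised promoter regions differed a little in base composition from the other promoter regions and lay farther from the start. Their median GC content was 62.7% with 21 CpG and 59 NGG motifs per 300 bp, against 66.7%, 27 and 65 in the other promoter regions. Raised regions that are not promoters had 47.7%, 3 and 37. The median distance of the centre from the start was 184 bp, against 111.5 bp, and 119 of 268 (44.4%) contained the start, against 59.7% of the other promoter regions. This did not hold for every guide, as GC content was not lower for sgHBB and the regions of sgHBG lay nearer to the start. The centre lay upstream of the start in 183 regions. By the annotation it lay outside transcripts in 112, in an intron in 90, in an untranslated exon in 59 and in a coding exon in 7. The same counts were not made for the other promoter regions. Pooled over guides, the length of the match went with GC content and distance from the start. The 49 regions with 8 or more bases had a median GC content of 55.3% at 302.5 bp from the start, whereas the 187 with 5 to 7 bases had 63.3% at 154.5 bp. The guides themselves differed in this. Of the 27 sgHS5 regions, 48.1% had 8 or more bases, and the 27 had medians of 56.3% GC and 341.5 bp. For the 105 regions of sg3'HS1 these values were 10.5%, 65.0% and 164.5 bp. The relation within a guide was not tested. The part of open chromatin or GC content in the ratios was not tested.

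At 8 loci the promoter was raised with more than 1 guide, and several of these loci held a site for each guide. PHYH, an enzyme of peroxisomal fatty acid oxidation, had ratios of 3.32 with sg3'HS1 (62 and 9 reads, against 0, 0, 0 and 1) and 3.09 with sgHBD-1kb (28 and 28 reads, against 0, 0, 1 and 0). Its regions for the 2 guides are shifted, and each had a site of its guide 11 bp and 4 bp from its own centre. SMG1, the kinase of nonsense-mediated decay, had ratios of 3.42 with sg3'HS1 (51 and 5 reads, against 0 in all 4) and 3.04 with sgHBD-1kb (32 and 23, against 0, 0, 1 and 0). The sequence above shows both of its sites within 1 stretch. LEPROT, besides sg3'HS1, was raised with sgHS3 (3.24, with 3, 21 and 26 reads, against 0 in all 4, at least 16.03-fold higher by reads), and its sites for both guides are next to each other. CMPK1, a nucleotide kinase, had ratios of 3.91 with sgHBG (78, 9, 69 and 105 reads, against 1, 0, 1 and 0) and 3.34 with sgHBD-1kb (51 and 20, against 0, 0, 1 and 0). Its site for sgHBG has a run of only 4 bases but 15 matching bases of 20. ZNF184, a zinc finger gene, had ratios of 3.63 with sgHBD-1kb and 3.18 with sg3'HS1 in neighbouring regions that overlap only at their ends. SERPINB1, an inhibitor of neutrophil elastase, had 3.24 with sg3'HS1, where the run was 8 bases, and 3.09 with sgHBD-1kb, where it was 3.

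GAS8 and PGK1 were raised with several guides and held no run of 5 bases of the candidates compared, while sgHS2 has no candidate. GAS8, a part of the dynein regulatory complex of cilia, passed the limit with sgHBD-1kb (4.13, with 115 and 70 reads, against 1, 12, 0 and 1), sgHS3-sg2 (3.503, with 112 reads, against 1, 11, 0 and 1) and sgHS2-sg2 (3.43, with 84 reads, against 1, 11, 0 and 1). Its longest run to any of these candidates was 4 bases. In other tables its ratio was 2.87 with sgHS4, 2.76 with sgHS1-sg2, 2.57 with sgHS3, 2.08 with sgHBG-sg2, 1.80 with sg3'HS1, 1.14 with sgHBG and 0.25 with sgHS5. All these ratios share the sgGal4 libraries and come from separately normalised tables. PGK1, a glycolytic enzyme, had ratios of 4.03 with sgHS2 (1, 423, 3, 0 and 6 reads, against 0, 0, 7 and 1) and 3.68 with sgHS3 (6, 278 and 6 reads, against 0, 0, 7 and 1). In both cases 1 library held nearly all of the level (97.5% with sgHS2 and 95.4% with sgHS3), and without it the ratio was -0.98 with sgHS2 and -0.17 with sgHS3. Over all raised promoter regions, 141 overlapped by at least 150 bp a region of another single-guide table. Of the 400 overlaps, 192 had a ratio of 1 or more in the other table and 33 a ratio below 0. Their median ratio there was 0.97. Over the promoter regions of all genes it was 0.50, with a region counted once for each gene within 1 kb. These medians come from different mixes of tables and are not matched. In the tables of guides with a candidate, 5853 promoter regions lay below 0 and 10385 between 0 and 1. Between 1 and 2 lay 4765, and between 2 and 3 lay 842. All overlaps share the sgGal4 libraries by which the regions were chosen, and loci raised with several guides count more than once. Recurrence across guides was not tested.

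The pool of HS1 to HS5 guides gave a look at these promoters in libraries that the choice had not used. The sgGal4 libraries were the same, and their low values took part in the choice. Only regions that the pool table lists have a value in it. These were 21 of 31 for sgHS3 and 14 of 27 for sgHS5, but 4 of 19 for sgHS2-sg2 and 2 of 6 for sgHS4. For sgHBD-1kb they were 16 of 46 and for sg3'HS1 22 of 105, so the values below leave out most regions of several guides. The pool table listed 44 entries of raised promoter regions of guides to HS1 to HS5, GAS8 and PGK1 counted under 2 guides each, and 46 of the other guides. Among the 44, 1 entry belongs to sgHS1-sg2, 4 to sgHS2-sg2 and 1 to sgHS3-sg2. The name of the pool does not say whether it held these second guides. The 44 had a median log2 ratio of 2.41 (0.37 to 3.89), and 40 of 44 were at 1 or more and 8 at 3 or more. Those of the other guides had a median of 1.08 (-0.16 to 3.47), with 27 of 46 at 1 or more and 1 at 3 or more. That 1 is GAS8, which is also among the 44, and SMG1 and PHYH count under 2 guides each among the 46. All 4160 promoter regions of the table had a median of 0.66, with 27.8% at 1 or more and 0.192% at 3 or more. In 7 of the 44 and 7 of the 46 every pool library lay above every sgGal4 library, against 6.92% of all promoter regions. By limma on the log2 levels of all 16890 regions, 0 of the 44 and 0 of the 46 were called at an adjusted p below 0.05 with a log2 ratio of 1 or more, as were 0 of 4160 promoter regions (0%) and 9 regions in all (0.0533%). At an unadjusted p below 0.05, 30 of the 44 and 27 of the 46 passed, against 1289 of all promoter regions (31%). The count of calls at an adjusted p below 0.05 among the 44, reported as 0, depends on the shallow sgGal4 libraries. Without sgGal4 replicate 3 it was 17 of 44, and without replicate 4 it was 19 of 44, while the calls over all 16890 regions were 1331 and 1521. It was 13 with a variance trend (180 over all regions), 8 and 5 on recovered reads with pseudocounts of 1 and 5 (148 and 101 over all regions), and 1 with the replicate number as a block (8 over all regions).

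Ratios in the pool table differed by guide. Of the 31 sgHS3 promoters 21 were listed, with a median ratio of 2.71, and of the 27 sgHS5 promoters 14, with a median of 2.16. The 17 of sgHS3 with a centred match had a median of 2.79 (1.99 to 3.42), against 2.14 for the 4 without, and the 13 of sgHS5 2.20 (1.247 to 3.004). For sgHBD-1kb, which is not in the pool, the 9 with a match had a median of 1.17, against 1.67 for the 7 without, and for sg3'HS1 the 19 with a match had 0.81, against 0.98 for the 3 without. GPR157, highest of all with sgHS5 and without a match, held 10, 12, 0, 0, 7 and 4 reads in the pool, against 1, 3, 0 and 2 with sgGal4 (0.40, limma adjusted p = 0.305). RNF44 reached 3.89, the highest ratio of any promoter region of the table (limma adjusted p = 0.12). The high values of sgHS3 included SPPL2A, an intramembrane protease (3.42), EPS15L1, an endocytic adaptor (3.26), MFN2, which fuses mitochondria (3.25), and BUD13, a splicing factor (3.18). The promoters of sg3'HS1, which is not part of the pool, had a median of 0.89 and those of sgHBD-1kb 1.31.

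The 6 pool libraries did not hold these promoters alike. The 21 sgHS3 promoters together took 227, 230, 143 and 88.0 of every 100000 reads in pool replicates 1 to 4, 1249 in replicate 5 and 932 in replicate 6, against 45.3, 48.3, 87.2 and 70.6 in sgGal4 replicates 1 to 4. The 14 sgHS5 promoters took 45.2, 42.5, 57.4 and 68.5 in pool replicates 1 to 4, 389 in replicate 5 and 632.3 in replicate 6, against 39.6, 42.8, 16.3 and 92.3 with sgGal4. For the promoters of sgHS5, replicates 1 to 4 thus lay within the range of sgGal4, and replicates 5 and 6 lay far above it. RNF44, of sgHS4, went the other way, with 151, 329, 14, 11, 5 and 3 reads in the 6 pool libraries, against 2, 5, 0 and 0 with sgGal4. TTBK2, the other listed region of sgHS4, did not show this order, with 12, 26, 2, 0, 12 and 8 reads, against 1, 1, 0 and 0. GFOD2, of sgHS1-sg2, had 6 reads in each of replicates 3 and 4, 38 in replicate 1, 60 in replicate 2, 8 in replicate 5 and 0 in replicate 6, against 2, 5, 0 and 0. PRSS35, of sgHS5, held 3, 2, 0, 0, 92 and 107 reads in the 6 pool libraries, against 0, 2, 0 and 1. The labels describe the 6 libraries as replicates of 1 pool, and the order of these values within the pool was seen in the data and not tested. The 22 sg3'HS1 promoters, for comparison, took 114 to 162 in the 6 pool libraries, against 74.7 to 104 with sgGal4.

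**Figure D5:**
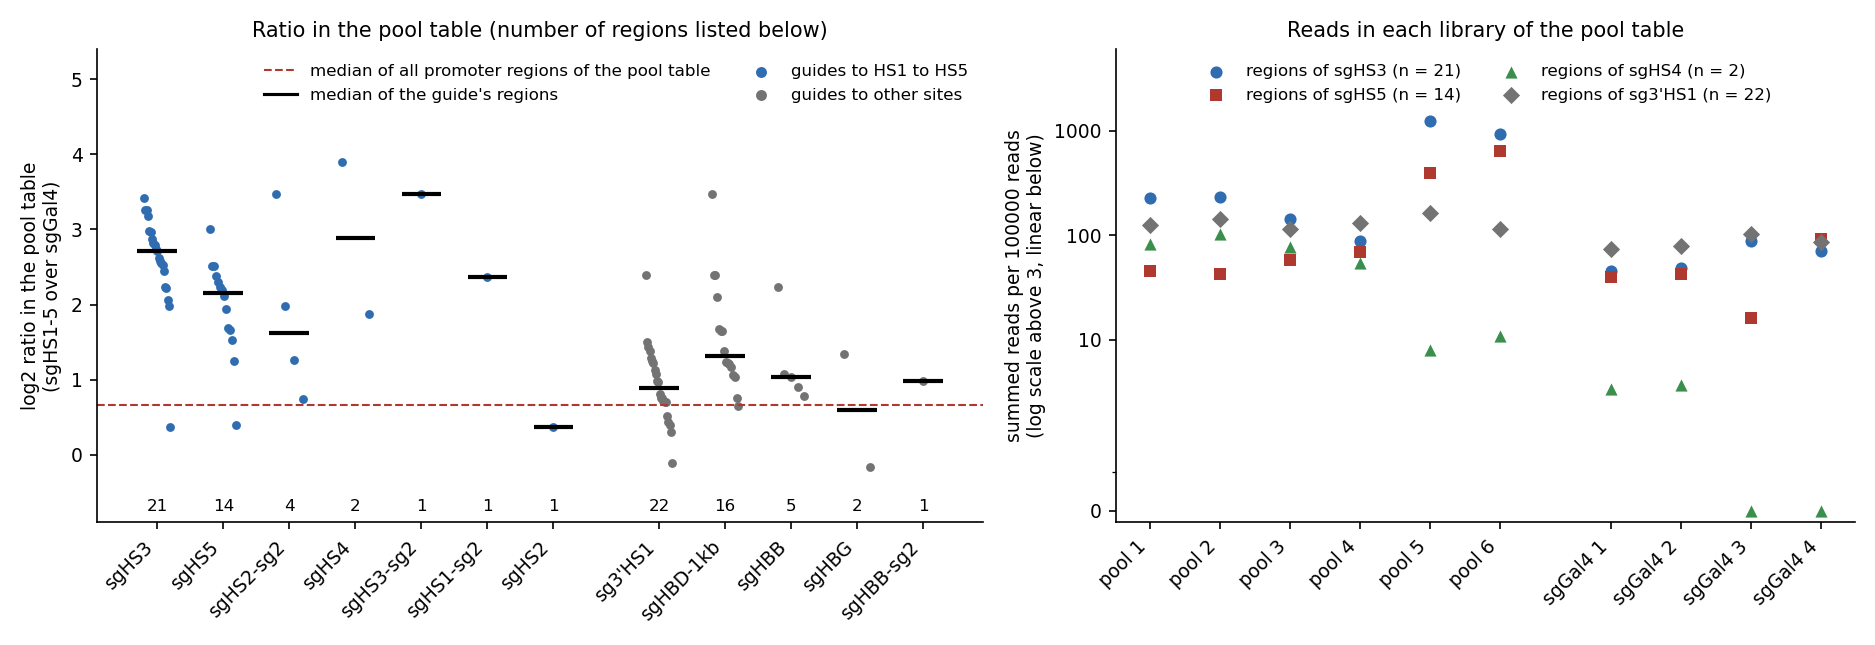
Left, log2 ratio of sgHS1-5 over sgGal4 in the pool table for raised promoter regions of each single guide, with medians as bars and the median of all promoter regions (0.66) dashed. Right, summed reads of the regions per 100000 reads of each library (log axis above 3). The sums of sgHS3 and sgHS5 are highest in pool replicates 5 and 6. The sum of sgHS4, over 2 regions, is highest in pool replicates 1 to 4, where RNF44 gave most of its reads.

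A second guide to the same element gave little to compare, since only 3 raised promoter regions were listed in the other guide's table. GAS8, raised with sgHS3-sg2, held 54, 10 and 15 reads with sgHS3, against 1, 11, 0 and 1 with sgGal4 (2.57). The test shares its sgGal4 libraries with the ratio by which GAS8 was chosen and is not independent of it. GAS8 was called in that table (limma adjusted p = 0.0301), where 7.9% of promoter regions and 6.44% of all regions were called. The call did not hold without sgGal4 replicate 1 (limma adjusted p = 0.0587) or without sgHS3 replicate 1, 2 or 3 (0.0879, 0.067 and 0.0784). DEPTOR, raised with sgHBG, held 6 and 6 reads with sgHBG-sg2, against 5, 10, 1 and 1 (-0.18, limma adjusted p = 0.861), in a table with 1.54% of promoter regions and 0.926% of all regions called. FBXW2, an F-box protein raised with sgHS3, held 16 reads with sgHS3-sg2, against 15, 30, 0 and 1 (0.04, limma adjusted p = 0.899, with 1 guide library and the spread taken from sgGal4 alone), in a table with 0.514% of promoter regions and 1.13% of all regions called.

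Over all 9697 genes with a listed promoter region, 287 (2.96%) had a raised one, counting every gene within 1 kb, and no list was tested against this share. In a list of 14 erythroid regulators, such as GATA1 and TAL1, 8 had a listed promoter region, 0 had a raised one, and their highest ratio was 2.11. Of 10 heme and iron genes 1 did, UROD, which encodes a decarboxylase of heme synthesis and held 133 and 20 reads with sg3'HS1, against 6, 11, 2 and 0 with sgGal4 (3.29, SD 0.60, n = 2). Of 12 glycolysis genes 1 did, PGK1, and of 7 genes from a list of chromatin architecture that includes CTCF and cohesin subunits, 0 did. Of 73 ribosomal protein genes 3 did (4.11%). These were RPS29, RPS16, which shares its region with the elongation factor gene SUPT5H (sgHBD-1kb, 64 and 67 reads, against 2, 1, 0 and 1; 4.05, SD 0.30), and RPS27L (sg3'HS1, 262 and 41 reads, against 2, 1, 2 and 2; 4.29, SD 0.67). The median ratio over promoter regions was 0.31 for the erythroid list, 0.54 for heme and iron, 0.48 for glycolysis, 0.97 for chromatin architecture and 0.18 for ribosomal proteins, against 0.50 for all genes.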

How the data were processed

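The submitters' processing notes name Bowtie 1.0.0, Picard and the build hg19, and uniquely aligned reads were kept per the labels' protocols. How levels were normalised and peaks called is not given in the sources used here. The authors deposited, for each guide, a table of 300 bp regions with a log2 level per library. Tables were normalised separately, so tests stayed within a table. Within a column, each level equals a slope and an intercept applied to the log2 of a whole number, for 100% of values (within 0.01, or 0.01% of the level). Subtracting 1 from that number gave the recovered reads. The label text of sgHBG-sg2 points to another guide's table, so its libraries were matched by column name. The recomputed log2 ratio differed from the deposited one by at most 1.39e-08.

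Of 61 samples, 46 had columns. The other samples were not analysed here. Starts came from GENCODE 44 lifted to GRCh37, and sequences from the GRCh37 genome, whose coordinates are those of hg19. The raised promoter regions, gene lists and tests were chosen with earlier results of these data known. A design for counts was written, but the values are log2 levels, so limma 3.58.1 in R 4.3.3 was fitted, guide against sgGal4, without a trend, with Benjamini-Hochberg adjustment over a table. A table with 1 guide library takes its spread from sgGal4. The fit was tested on simulated data. Of regions raised by 2 and 4 on the log2 scale it found 46% and 99% in the pool table, and 22% and 99% in that of sgHS3. Where a region was looked up in another table, regions sharing at least 150 bp were taken as the same. For the count of loci, raised regions of different guides were joined when they shared at least 1 base. The text names the 3 highest regions of each table, those raised in 2 or more tables, tagged off-target, on a list, called in another table, next to the limit, or with the longest match of 10 bases or more. A few more were named after their values were seen. Some items that this rule names are not reported here. Replicate numbers did not pair guide and sgGal4 libraries, whose deviations correlated by -0.25 to 0.22. Alternatives were other limits and distances, recovered reads, differences of mean log2 levels, a filter on reads and leaving out each library.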

Additional observations from a re-analysis of the deposited data

Results flagged for a closer look

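Of 59 groups of 4 to 10 libraries examined at the named regions, 2 had a library far from the others, and chance alone gives about 1 such group in 20. Both are in the sgHBD-1kb table and concern sgGal4 replicate 2. At CD247 its log2 level was 2.05, from 6 reads, below the other 3 sgGal4 libraries, with a gap of 0.93 of the range. At ZNF184 its log2 level was 1.59, from 4 reads, again the lowest, with a gap of 0.97 of the range. In sgGal4 replicates 3 and 4, 0 reads at both regions stood at a higher level than those reads did in replicate 2.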

How the results depend on the processing

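The number of raised promoter regions, 268, stayed within 1.5 times of itself with a start within 500 bp (223), within 2 kb (312) or within 1 kb of the nearest edge (280), with a filter of at least 10 reads (268) and without regions dominated by 1 library (256). It was 1230 with a limit of 2 and 62 with a limit of 4. On recovered reads it was 710 with a pseudocount of 1 and 59 with a pseudocount of 5, and 418 by the difference of mean log2 levels. Leaving out 1 library gave 202 to 427, the highest without sgGal4 replicate 4. Of the 268 regions, 234 kept 3 or more on reads with a pseudocount of 1, 57 with 5, and 250 by mean log2 levels. Of 162 values of named regions on these scales, 0 changed sign and 31 lay below 3. The scales reuse the reads by which the regions were chosen, so nothing is read from the 0. The pool calls of HS1 to HS5 promoters, 0 as reported and with a filter of at least 10 reads, were 8 and 5 on reads with pseudocounts of 1 and 5, 13 with a variance trend, 1 with the replicate block, and 0 to 19 without 1 library. Over all regions of that table, 9 calls became 148, 101, 180, 8 and 5 to 1521 under these settings. In the table of the other guide the 1 call, GAS8, held with the replicate block (1) and gave 0 to 1 without 1 library, with limma adjusted p of 0.0205 to 0.0879 over the alternatives. Matches of 10 bases, 20, became 49 from 8 bases, 5 from 12, 236 from 5 and 209 from 5 within 30 bp of the centre. The centred share was 59.8% of 450 regions chosen on reads with a pseudocount of 1 and 71.6% of 409 chosen by mean log2 levels. The cause of these differences was not tested. The sgGal4 reads, a median of 5.5 per region over 4 libraries, limit the precision of the ratios.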

Other observations

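The pool table had 8 promoter regions of its own with a log2 ratio of 3 or more, 0.192% of its promoter regions. Of these, 5 were raised with a single HS guide and are named above (RNF44, SPPL2A, EPS15L1, MFN2 and PRSS35, each with a centred match to sgHS3, sgHS4 or sgHS5), as is GAS8, which has none. BUD13 is not among the 8, since its region in the pool table is centred 1005 bp from the start. The other 2 are HNRNPLL, an RNA-binding protein of T-cell splicing (3.59), which holds a run of 11 bases of the sgHS5 candidate near its centre, and PSMB2, a subunit of the proteasome (3.12), which holds no run of 5 bases of any of the 9 candidates near its centre. Among the 52 raised regions of the pool that are not promoters, 40 had 5 or more and 26 had 10 or more bases of the sgHS3 candidate near the centre, whereas those of the other candidates had at most 1 region each with 5 or more.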
